A study of Mus musculus with 6 samples.

Results

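The mitochondrial ribosomal proteins are the nuclear-encoded proteins of the ribosome inside mitochondria, and their genes carry the symbols Mrpl and Mrps followed by a number. Members were the genes with a probe set annotated to 1 such symbol alone, and where a gene had several such probe sets, the one with the highest mean over the 6 arrays stood for it. This gave 71 genes of the 22180 named genes on the array, and of its 41345 probe sets 80 belonged to them. Of the 71, 45 encode proteins of the large subunit and 26 of the small subunit. The symbols run to 43 Mrpl and 28 Mrps genes, because Mrps30 and Mrps18a, named for the small subunit, encode large-subunit proteins. RefSeq lists 78 protein-coding genes with such symbols in the mouse, and the other 7 (Mrpl30, Mrpl33, Mrpl41, Mrpl43, Mrpl44, Mrpl53 and Mrps6) were measured here only by probe sets shared with a neighbouring or similar gene. The 71 members lie on 17 chromosomes, with 11 on chromosome 11 and 8 on chromosome 17.

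The arrays were Affymetrix Mouse Gene 2.0 ST arrays of gastrocnemius, a calf muscle, from 3 transgenic and 3 wild-type (WT) mice, with 1 array per mouse. All mice were males, 3 months old, of a background given as C57 in the labels and as C57BL/6 in the study's methods. The study's methods describe the transgene as a porcine DGAT1 cDNA driven by a porcine muscle creatine kinase promoter, which is active in muscle, and the mice as first-generation offspring of founders crossed to WT mice, with the number of founders not given, whereas the sample labels call the same animals DGAT1 knockout transgenic. DGAT1 catalyses the last step of triacylglycerol synthesis. The log2 values of the mouse Dgat1 gene were 8.09, 7.65 and 7.73 (transgenic replicates 1 to 3) and 7.96, 7.26 and 7.79 (WT replicates 1 to 3). Its groups overlapped, with a log2 fold change of 0.15 (95% interval -0.39 to 0.69), and probes designed on mouse sequence may miss a cDNA from the pig, so neither description of the genotype is settled by these values.

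The mitochondrial ribosome translates the few messages encoded in mitochondrial DNA, all of which are subunits of the respiratory chain and ATP synthase. Its RNAs come from mitochondrial DNA, while all of its proteins are made in the cytosol and imported, so that assembly draws on both genomes. Many of the proteins have counterparts in bacterial ribosomes, and the remainder are particular to mitochondria. Skeletal muscle relies on this machinery for oxidative capacity, and in humans defects of several of these proteins cause childhood respiratory chain disease.

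The start regions of these genes are shown first, because genes of the mitochondrial ribosome are scattered over the genome and have been grouped by binding sites of the nuclear respiratory factors, which drive many nuclear genes for mitochondrial proteins. RefSeq promoter windows (mouse build GRCm38.p6, 250 bases before to 50 after the start) matched 62 of the 71 members, with 68 windows in all. The 5 windows below, each 300 bases and written 5′ to 3′ on the gene's own strand, show the gene with the lowest fold of the set (Mrpl24), 2 with several NRF1 strings (Mrpl12 and Mrpl45) and 2 that face a neighbouring gene (Mrps11 and Mrps12). Capitals mark matches to the strings searched.
Mrpl24, chr3:87919294-87919593, plus strand: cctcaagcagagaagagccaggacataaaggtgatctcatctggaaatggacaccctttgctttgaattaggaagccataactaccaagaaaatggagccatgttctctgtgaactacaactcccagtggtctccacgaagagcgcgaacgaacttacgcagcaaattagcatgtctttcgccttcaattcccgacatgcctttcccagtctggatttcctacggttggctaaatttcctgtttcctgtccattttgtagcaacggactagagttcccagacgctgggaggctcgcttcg
Mrpl12, chr11:120484387-120484686, plus strand: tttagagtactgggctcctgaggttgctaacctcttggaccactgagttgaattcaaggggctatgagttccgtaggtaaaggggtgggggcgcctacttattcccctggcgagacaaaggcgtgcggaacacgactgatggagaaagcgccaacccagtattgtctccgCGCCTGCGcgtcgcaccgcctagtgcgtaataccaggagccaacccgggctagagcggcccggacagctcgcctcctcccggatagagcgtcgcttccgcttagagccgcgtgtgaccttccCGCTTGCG
Mrpl45, chr11:97315466-97315765, plus strand: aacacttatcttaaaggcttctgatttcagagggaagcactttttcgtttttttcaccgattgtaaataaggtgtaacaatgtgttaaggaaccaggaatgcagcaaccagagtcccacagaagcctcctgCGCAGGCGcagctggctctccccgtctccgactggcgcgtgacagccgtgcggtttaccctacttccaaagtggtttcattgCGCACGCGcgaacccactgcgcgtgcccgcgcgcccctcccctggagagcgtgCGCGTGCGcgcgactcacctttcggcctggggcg
Mrps11, chr7:78782881-78783180, plus strand: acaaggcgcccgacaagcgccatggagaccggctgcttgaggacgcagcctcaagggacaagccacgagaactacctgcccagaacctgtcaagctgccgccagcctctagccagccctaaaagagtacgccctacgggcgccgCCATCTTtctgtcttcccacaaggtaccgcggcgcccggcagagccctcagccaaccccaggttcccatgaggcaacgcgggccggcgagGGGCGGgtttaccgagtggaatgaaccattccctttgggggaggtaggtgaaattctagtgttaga
Mrps12, chr7:28741772-28742071, minus strand: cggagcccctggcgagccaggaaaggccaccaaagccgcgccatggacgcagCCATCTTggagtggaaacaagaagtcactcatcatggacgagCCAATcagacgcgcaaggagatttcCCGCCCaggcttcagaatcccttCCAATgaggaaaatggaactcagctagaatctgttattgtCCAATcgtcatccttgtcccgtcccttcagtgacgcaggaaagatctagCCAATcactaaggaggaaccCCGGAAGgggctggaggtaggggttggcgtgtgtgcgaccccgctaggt
The capitals of Mrpl12 are 2 NRF1 strings and those of Mrpl45 are 3, while the window of Mrpl24 held none of the strings. Mrps11 held 1 YY1 string and 1 SP1 string. Mrps12 held 4 NF-Y strings and 1 each of YY1, SP1 and GABPA.

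Strings were searched on both strands. The NRF1 string CGCANGCG, where N is any base, was in 17 of the 68 member windows (25%), against 11.1% of 21263 windows of protein-coding genes. The GABPA string CCGGAAG, bound by nuclear respiratory factor 2, was in 23 windows (33.8%), against 11.6% of protein-coding windows. AAGATGG, the string of the zinc-finger factor YY1, was in 13 windows (19.1%), against 6.24%. The general promoter strings differed less in share. GGGCGG (SP1) was in 54.4% of member windows and 46.2% of protein-coding windows, CCAAT (NF-Y) in 39.7% and 38.2%, and the E-box CACGTG in 10.3% and 7.84%. Shares are over windows and not genes, and Mrpl2, Mrpl48 and Mrps16 had more than 1 window each. The windows of Mrpl2 overlap almost wholly and each held the same E-box, which raises the E-box share. A GABPA and a YY1 string can share 3 bases, and did so in 0 member windows. Over all 32851 windows of the table, 8.21% held the NRF1 string, 8.86% the GABPA string, 6.34% the YY1 string, 35.7% the SP1 string, 37.4% the NF-Y string and 7.15% the E-box. Member windows also held more CpG dinucleotides (median 21, against 13 in protein-coding windows) at a GC content of 58.5% against 56.3%, and the part of base composition in the motif shares was not tested. A match is a description of the letters and not a measured binding site.

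Of the 62 members with a window, 21 (33.9%) started within 500 bases of another gene that runs the other way, an arrangement that 11.7% of 17492 protein-coding genes had. Mrps11 and Mrpl46, of the small and the large subunit, start 42 bases apart on chromosome 7. Mrps12 starts 147 bases from Sars2, the mitochondrial seryl-tRNA synthetase, and Mrpl47 starts 308 bases from Ndufb5, a subunit of respiratory complex I. Other partners were Fau (Mrpl49), which encodes a cytosolic ribosomal protein, Tcp1 (Mrpl18), a subunit of a cytosolic chaperonin, and Psma2 (Mrpl32), a proteasome subunit.

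The main question asked of the arrays was whether any of these genes differed in level between transgenic and WT muscle. Values are log2 expression values, and a fold change is the transgenic over the WT mean. Of the 71 members 56 had a lower mean in transgenic mice, by modest amounts: the median log2 fold change was -0.12, with the middle of the members between -0.17 and -0.02. Single WT mice moved this: without WT replicate 1 the median was -0.03 with 43 members lower, and without WT replicate 2 it was -0.21 with 64 lower. Over all probe sets the median was -0.01 and 51.2% had a lower mean, and over the named genes, at 1 probe set each, the median was -0.02 and 54.8% had a lower mean. Folds ran from 0.778 (Mrpl24, a large-subunit protein near the exit of the nascent chain) to 1.78 (Mrpl47, another protein of that region). Mrpl47 had a second probe set of nearly the same mean level, with a fold of 1.15. The large subunit had a median of -0.13 with 38 of 45 lower, and the small subunit -0.08 with 18 of 26 lower.

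By limma as fitted to all 6 mice, no member passed a threshold. In this fit 0 of 71 had an adjusted p under 0.05, as did 0% of all probe sets, with an adjusted p of 1 as the smallest. At an unadjusted p under 0.05 the count by limma was also 0 of 71, where 2.9% of all probe sets were called, and the smallest unadjusted p was 0.0514 (Mrpl24). At the threshold of the study's methods, an unadjusted p under 0.05 with a fold of at least 1.5, the count was 0 of 71, where 1.49% of all probe sets were called. These calls take their p from limma, as do others at this threshold unless stated. The methods' t-test called 281 probe sets (0.68%) and 0 members there, against 618 probe sets by limma. The methods' t-test gave 2 of 71 at an unadjusted p under 0.05 (Mrpl24 and Mrpl42), where it called 3.30% of all probe sets, and limma with array weights gave 8 of 71, 7 lower and 1 higher, where it called 15.7% of all probe sets. With those weights 1 member (Mrpl47) was past the study threshold, as were 6.31% of all probe sets. A p above the threshold does not show equal levels, so the intervals are given. For 42 of 71 members the 95% interval of the fold change lay within 1.5-fold in both directions (26 of the large and 16 of the small subunit), a share that was 43.7% over all probe sets and 57.6% over named genes. Of the other 29, the interval of 24 reached a 1.5-fold lower level and that of 7 a 1.5-fold higher level, 2 genes reaching both.

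**Figure D1:**
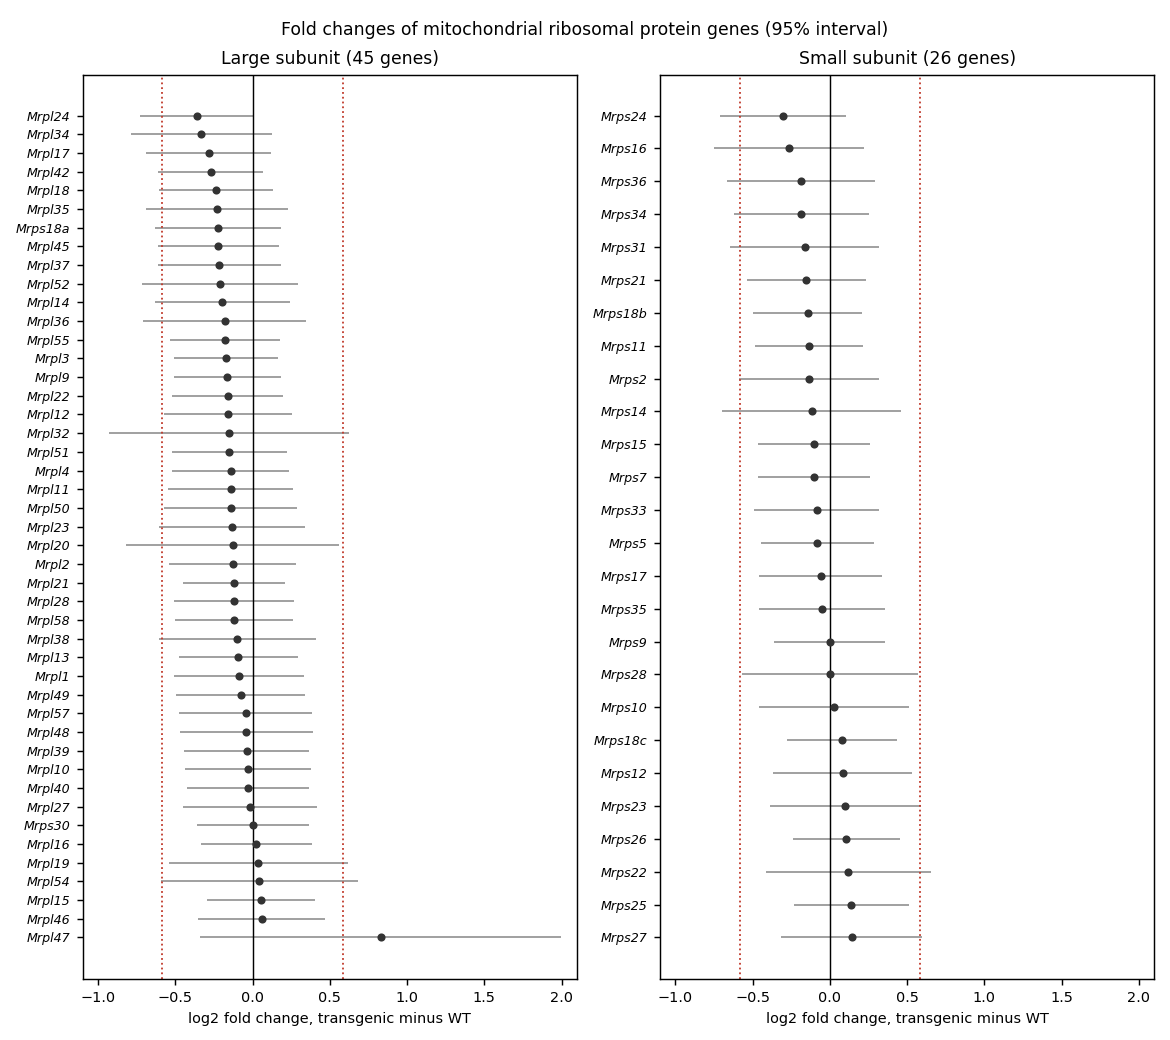
Log2 fold change (transgenic minus WT, dot) of the 71 genes with its 95% interval from limma (line), in order of size, for the large subunit (left) and the small subunit (right); dotted lines mark 1.5-fold in each direction. Nearly all dots lie close to the zero line and 56 lie to its left, while Mrpl47, at 0.83, stands apart with the widest interval, from -0.34 to 2.0.

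In 4 members, all of the large subunit, every transgenic mouse was below every WT mouse, a share near the 4.31% of all probe sets for which this held. The reverse order was found in 0 members, against 2.9% of all probe sets. Values are given as replicates 1, 2 and 3 in turn. Mrpl24 had values of 8.27, 7.96 and 8.12 in the transgenic group, against 8.61, 8.36 and 8.47 in the WT group. Its groups did not overlap, and the fold was 0.778 (95% interval 0.604 to 1.002). Mrpl17, a protein with a bacterial counterpart at the exit tunnel, had values of 8.30, 8.05 and 8.25 against 8.74, 8.33 and 8.38, with the highest value in WT replicate 1. The gap between its closest mice was small, and the log2 fold change was -0.28 (95% interval -0.69 to 0.12). Mrpl42, particular to mitochondria, was nearly flat in transgenic mice at 9.03, 9.03 and 8.99 and varied more in WT mice, at 9.37, 9.11 and 9.38. Its log2 fold change was -0.27 (95% interval -0.61 to 0.07, unadjusted p = 0.103 from limma). Mrpl18, whose human counterpart has been found to bind 5S ribosomal RNA, had 7.96, 7.67 and 8.04 against 8.20, 8.06 and 8.11. Transgenic replicate 2 was the lowest, transgenic replicate 3 nearly met the WT range, and the log2 fold change was -0.24 (95% interval -0.60 to 0.13).

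**Figure D2:**
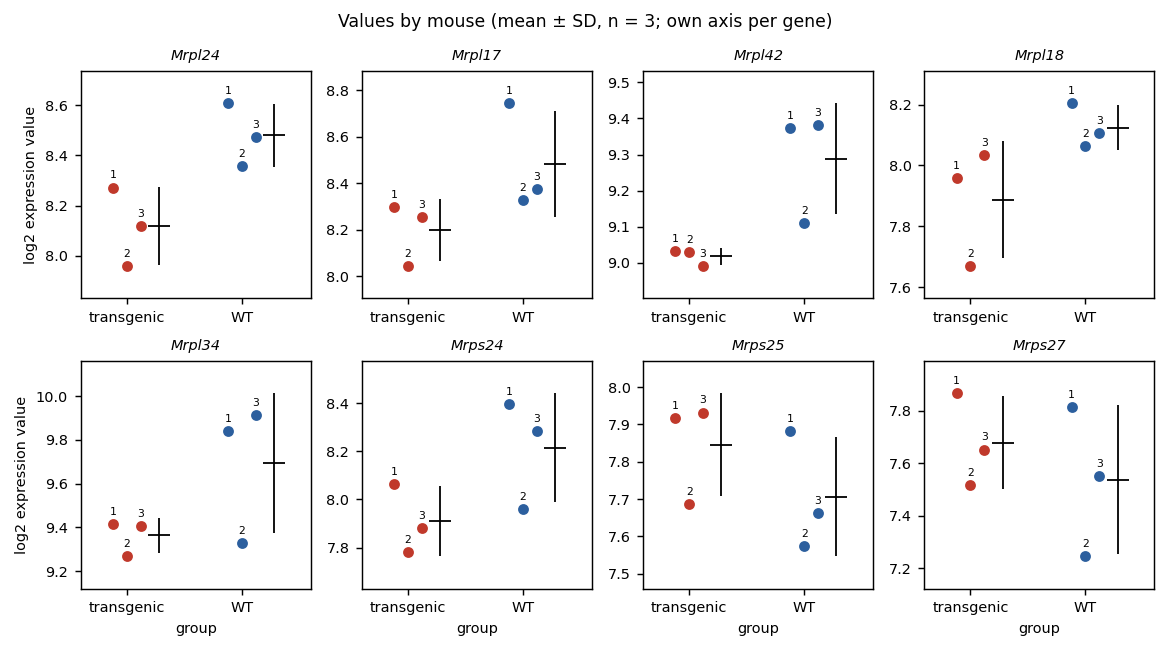
Log2 expression value of each mouse (numbered dots) in transgenic and WT groups for 8 members, with the mean ± SD of 3 mice beside them and an own axis for each gene. In the upper 4 genes the transgenic dots lie below the WT dots; in the lower 4, among them Mrps25 and Mrps27 with higher transgenic means, the groups overlap and WT replicate 2 is the lowest WT mouse.

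Large-subunit proteins with bacterial counterparts (28 genes) had a median log2 fold change of -0.14, with 24 lower. Mrpl34 had values of 9.41, 9.27 and 9.41 in the transgenic group, against 9.84, 9.33 and 9.92 in the WT group. WT replicate 2 fell among the transgenic values, so that the groups overlapped at a log2 fold change of -0.33 (95% interval -0.78 to 0.12). The proteins of the stalk that recruits translation factors are Mrpl10 and Mrpl12, with Mrpl11 at its base. In human cells MRPL12 has also been found to bind the mitochondrial RNA polymerase. Mrpl12 had 7.90, 7.62 and 7.76 against 8.02, 7.65 and 8.10, with overlapping groups and a log2 fold change of -0.16 (95% interval -0.58 to 0.25). Mrpl10 had a log2 fold change of -0.03 (95% interval -0.44 to 0.38) and Mrpl11 of -0.14 (95% interval -0.55 to 0.26). The stalk genes did not stand apart from the rest of the subunit.

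Mrpl1, of the opposite stalk at the exit site of the transfer RNAs, had a log2 fold change of -0.09 (95% interval -0.51 to 0.33). Mrpl3, one of the proteins affected in human respiratory chain disease, was among the more evenly measured genes, with 8.71, 8.62 and 8.48 against 8.83, 8.82 and 8.67. Its groups overlapped only through transgenic replicate 1 and WT replicate 3, and the log2 fold change was -0.17 (95% interval -0.51 to 0.16). Mrpl32, which is matured by a mitochondrial protease before it joins the ribosome, ranged from 6.42 in transgenic replicate 2 to 7.63 in WT replicate 1. Its log2 fold change of -0.15 (95% interval -0.93 to 0.63) became 0.21 without transgenic replicate 2. Mrpl20, whose bacterial counterpart acts early in assembly, had 6.47, 5.91 and 6.23 against 6.84, 5.78 and 6.37. The distance between WT replicates 1 and 2 was the full range of this gene, and the log2 fold change was -0.13 (95% interval -0.82 to 0.56).

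Large-subunit proteins particular to mitochondria (17 genes) had a median log2 fold change of -0.10, with 14 lower. Mrpl45, which anchors the ribosome near the inner membrane where its products are inserted, had 6.82, 6.59 and 6.73 in transgenic mice against 7.16, 6.74 and 6.91 in WT mice. Transgenic replicate 1 lay above WT replicate 2, and the log2 fold change was -0.22 (95% interval -0.61 to 0.17). Mrps18a, 1 of 3 mouse genes related to a single bacterial small-subunit protein but placed in the large subunit, had 8.33, 8.25 and 8.31 against 8.58, 8.23 and 8.75. Its log2 fold change was -0.23 (95% interval -0.63 to 0.18), with WT replicate 2 as the lowest of the 6 mice. Mrps30, the other large-subunit protein with a small-subunit symbol, had a fold of 1.002 (95% interval 0.779 to 1.29).

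Small-subunit proteins with bacterial counterparts (15 genes) had a median log2 fold change of -0.10, with 12 lower. Mrps24, at the channel where the message enters, had 8.07, 7.78 and 7.88 in transgenic mice against 8.40, 7.96 and 8.28 in WT mice. Its groups overlapped through WT replicate 2, with a log2 fold change of -0.30 (95% interval -0.71 to 0.10). Mrps16, in which human mutations cause a fatal respiratory chain defect, had 6.71, 6.30 and 6.57 against 6.51, 6.76 and 7.11. WT replicate 1 was the lowest WT mouse on this probe set, unlike in most members, and the log2 fold change was -0.27 (95% interval -0.75 to 0.22). The other probe set of Mrps16, with a lower mean, was highest in WT replicate 1 (6.40) and lowest in WT replicate 2 (5.14). Its log2 fold change was -0.23. Mrps12, at the decoding centre, had a log2 fold change of 0.08 (95% interval -0.37 to 0.53), Mrps2 of -0.13 (95% interval -0.59 to 0.32) and Mrps7, which holds the message near its exit, of -0.10 (95% interval -0.46 to 0.26). Mrps18c, the closest relative of the bacterial protein among the 3 Mrps18 genes, had a log2 fold change of 0.08 (95% interval -0.28 to 0.44).

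Small-subunit proteins particular to mitochondria (11 genes) were divided in direction, with 6 lower, 5 higher and a median log2 fold change of -0.05. The 5 with higher means were Mrps22, Mrps23, Mrps25, Mrps26 and Mrps27, and none passed the test. Mrps27, a pentatricopeptide repeat protein, had 7.87, 7.52 and 7.65 in transgenic mice against 7.81, 7.25 and 7.55 in WT mice. The groups overlapped almost wholly, with a log2 fold change of 0.14 (95% interval -0.32 to 0.60) that became -0.004 without WT replicate 2. Mrps25 had 7.92, 7.69 and 7.93 against 7.88, 7.57 and 7.66, and its log2 fold change was 0.14 (95% interval -0.23 to 0.51). Mrps26 had a log2 fold change of 0.11 (95% interval -0.24 to 0.45) and kept a positive sign without any 1 mouse. Mrps22, affected in human disease, had 7.03, 6.88 and 6.97 against 7.20, 6.38 and 6.94. WT replicates 1 and 2 were its extremes, and its log2 fold change of 0.12 (95% interval -0.41 to 0.65) became -0.11 without WT replicate 2, while that of Mrps23 went from 0.10 to -0.09. Of the 6 with lower means, Mrps18b had a log2 fold change of -0.14 (95% interval -0.49 to 0.21). Mrps36, now known mainly as a component of the 2-oxoglutarate dehydrogenase complex rather than of the ribosome, had -0.19 (95% interval -0.67 to 0.29).

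Mrpl47 had by far the highest fold, on its chosen probe set, and its probe sets disagreed on the size. They were nearly level in mean over the 6 arrays (6.97 for the chosen one, 6.94 for the other). The chosen one was higher only in transgenic mice (mean 7.38 against 7.04) and was lower in WT mice (6.55 against 6.84). Choosing by the highest mean thus favoured the probe set with the larger rise. The chosen probe set had values of 7.48, 6.95 and 7.71 in the transgenic group, against 7.65, 6.36 and 5.64 in the WT group. WT replicate 1 was among the highest of the 6 and the other WT mice the lowest, so that the log2 fold change of 0.83 (95% interval -0.34 to 2.0, unadjusted p = 0.138 from limma) rested on WT replicates 2 and 3. It was 0.37 without WT replicate 3 and 1.38 without WT replicate 1. The second probe set had 7.09, 6.98 and 7.04 against 7.05, 6.66 and 6.80, with a log2 fold change of 0.20 (95% interval -0.17 to 0.57). The partner across its start region, Ndufb5, had a log2 fold change of -0.25 (95% interval -0.63 to 0.12).

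Of the 71 members 9 had 2 probe sets of their own and 62 had 1. In 7 of the 9, 1 of the pair was lowest in WT replicate 3 and the other was not, and in 5 of these 7 it was the dimmer probe set. Among the 62 genes with 1 probe set, 4 were lowest in that mouse. Mrpl36, whose bacterial counterpart joins late in assembly, had 6.77, 6.71 and 6.77 against 7.35, 6.52 and 6.93 on the brighter probe set and 6.91, 6.74 and 6.96 against 7.24, 6.47 and 5.54 on the dimmer. The log2 fold changes were -0.18 and 0.45, opposite in sign, and the difference lay mostly in WT replicate 3. The dimmer probe set of Mrpl10 had 5.84 in WT replicate 3 and 6.59 to 6.72 in transgenic mice and WT replicate 1, and its log2 fold change of 0.40 stood beside -0.03 on the brighter. That of Mrps17, a small-subunit protein with a bacterial counterpart, had 5.20 in WT replicate 3 and 5.84 to 6.08 in the others, with 0.28 beside -0.06. The pattern was not particular to these genes: among 1082 named genes with several probe sets, 29.7% of the dimmer ones and 9.61% of the brightest were lowest in WT replicate 3, as were 10.1% of the 21098 genes with a single probe set.

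**Figure D3:**
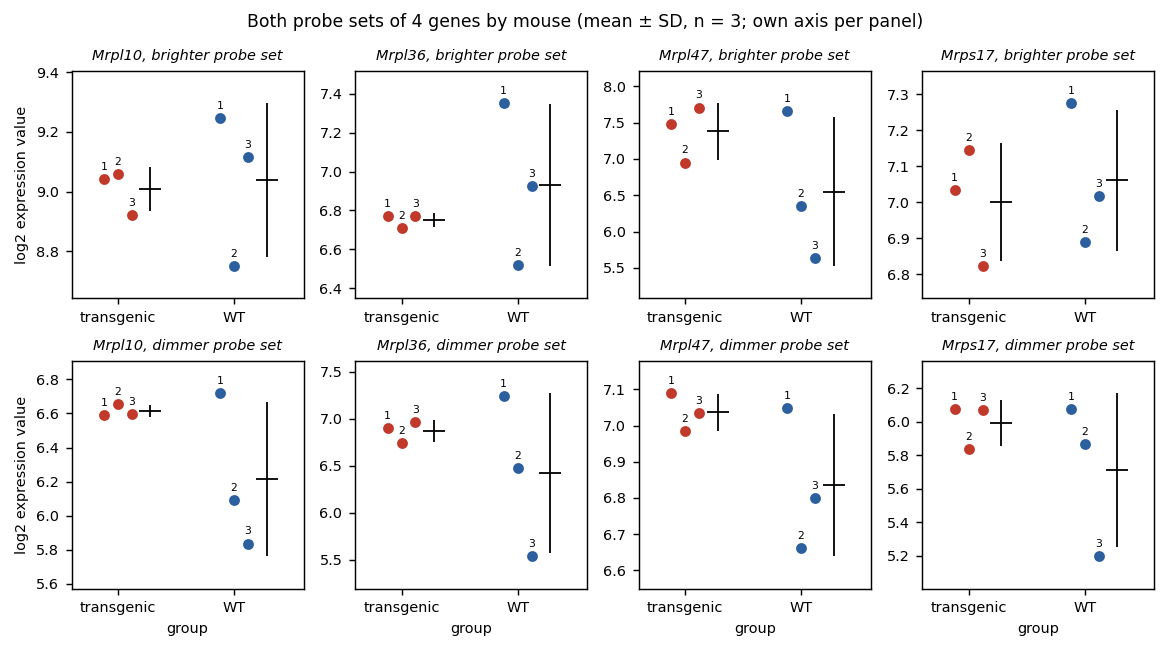
Log2 expression value of each mouse (numbered dots) on both probe sets of 4 genes, brighter above and dimmer below, with the mean ± SD of 3 mice and an own axis for each panel. WT replicate 3 drops to the bottom on 1 probe set of each gene, to 5.54 on the dimmer one of Mrpl36 and to 5.64 on the brighter one of Mrpl47, but not on the other.

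The members tended to vary together from mouse to mouse. WT replicate 1 had the highest value of the 6 mice in 49 of 71 members (69.0%). The lowest was in WT replicate 2 in 30 (42.3%) and in transgenic replicate 2 in 23 (32.4%). Among the 12923 named genes not below the median level of all probe sets these shares were 40.4%, 43.0% and 22.1%. The share lowest in WT replicate 2 was thus near that of these genes. WT replicate 1 was above WT replicate 2 in 67 of 71 members, by a median of 0.39 on the log2 scale. The median range among the WT mice was 0.42 and exceeded the size of the log2 fold change in 65 of 71 members. A range of single mice tends to exceed a difference of group means by noise alone. The share over all probe sets was not computed, so no conclusion is drawn from this count. Among transgenic mice the median range was 0.24, and 55 members had the larger SD in WT mice (median SD 0.22 in WT, 0.13 in transgenic). The share of all probe sets with the larger SD in WT mice was not computed. The wider WT spread was not particular to the members. The mean deviation of the 12923 named genes also had the larger SD in WT mice (0.12, against 0.06 in transgenic mice). The mean deviation of the members from their own means was 0.04, -0.13 and -0.04 in transgenic replicates 1 to 3 and 0.24, -0.17 and 0.07 in WT replicates 1 to 3. The transgenic mice thus lay between WT replicates 1 and 2.

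**Figure D4:**
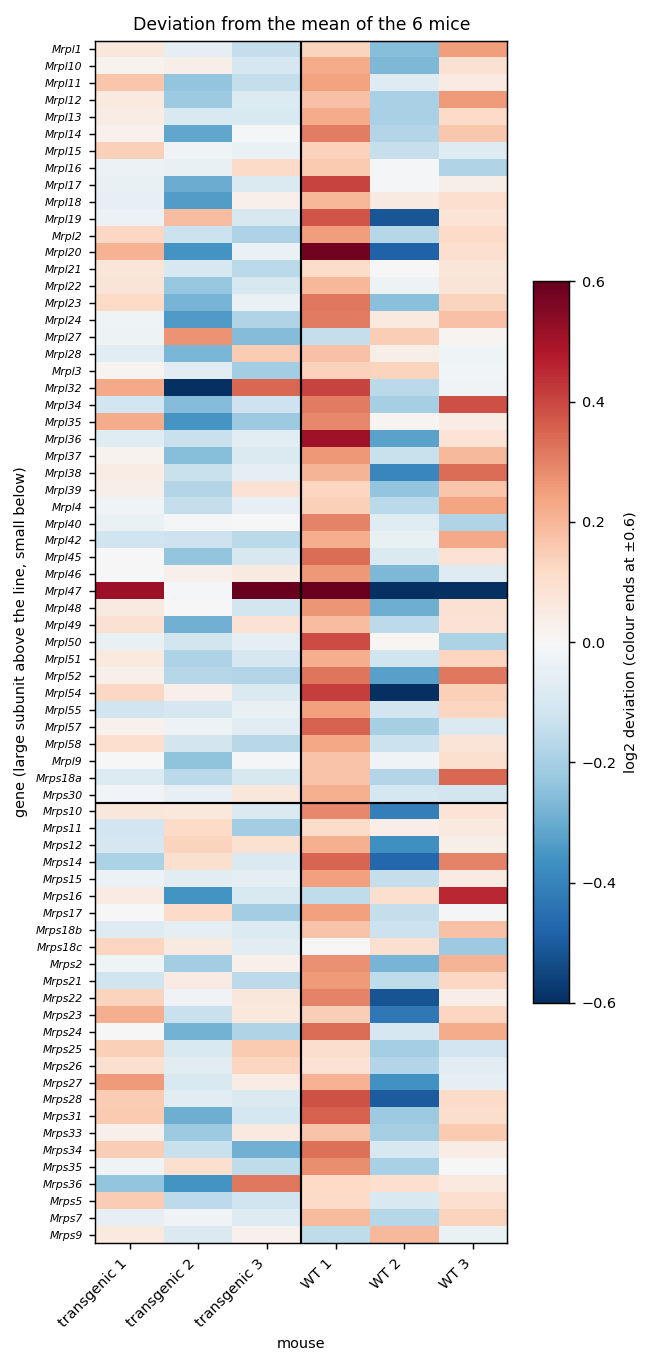
Deviation of each member's log2 value from its mean over the 6 mice (colour, ending at 0.6 in each direction), with genes as rows, the large subunit above the horizontal line, and mice as columns, transgenic left of the vertical line. WT replicate 1 is high and WT replicate 2 and transgenic replicate 2 are low in most rows, with Mrps9, Mrpl27 and Mrps18c among the exceptions.

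Each member was set against the mean of the others over the 6 mice, as a description. Such a correlation was not computed for other genes. Named genes not below the median level were also, on average, high in WT replicate 1 and low in WT replicate 2 and transgenic replicate 2. A high correlation is therefore not shown to be particular to the members. The median correlation was 0.81, 61 of 71 members were over 0.5, and values ran from -0.67 (Mrps9) to 0.98 (Mrpl20). Mrps9, Mrpl27 (-0.59) and Mrps18c (-0.33) were below 0. Of the members, 3 lay below the median level of all probe sets, namely Mrpl27, Mrps14 and Mrps36. After quantile normalization, which gives every array the same distribution of values, the median correlation was 0.64 and 6 members were below 0. Genes that share a start region varied in how far they followed each other over the 6 mice, in the 7 pairs computed. The correlation was 0.67 for Mrpl49 with Fau, 0.64 for Mrpl32 with Psma2, 0.64 for Mrps27 with Ptcd2 and 0.45 for Mrpl18 with Tcp1. It was 0.15 for Mrps12 with Sars2, 0.04 for Mrps11 with Mrpl46 and -0.45 for Mrpl47 with Ndufb5. Members with an NRF1 string in their start region (17) had a median correlation with the other members of 0.82 and a median log2 fold change of -0.14, and those without (45) of 0.75 and -0.13. Those with a GABPA string (23) had 0.77 and -0.12, and those without (39) 0.79 and -0.13. Those with a YY1 string (13) had 0.75 and -0.18, and those without (49) 0.79 and -0.12.

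The arrays differed in spread in the same order. The SD over all probe sets was highest in WT replicate 1 (1.96) and lowest in WT replicate 2 (1.82), with transgenic replicate 2 next (1.86), while the array median was lowest in WT replicate 1 (5.71) and highest in WT replicate 2 (5.88). The 12923 named genes not below the median level moved likewise, with mean deviations of 0.11 in WT replicate 1, -0.12 in WT replicate 2 and -0.07 in transgenic replicate 2, and 78.0% of them were higher in WT replicate 1 than in WT replicate 2, against 94.4% of the members. After quantile normalization the members' mean deviation was 0.18 in WT replicate 1 and -0.11 in both WT replicate 2 and transgenic replicate 2. That of the named genes not below the median level was 0.09 in WT replicate 1, -0.09 in WT replicate 2 and -0.07 in transgenic replicate 2. Markers of muscle fibers, the cells expected here, had mean values of 12.7 to 12.9 in all 6 mice. Of these 10 markers 9 had lower means in transgenic mice, with a median log2 fold change of -0.07. The 13 hepatocyte markers, which muscle should lack, had mean values of 7.95, 5.55 and 8.84 in the transgenic group, against 8.74, 6.77 and 5.63 in the WT group, so that they were high in WT replicate 1 and low in transgenic replicate 2 as the members were, but also low in WT replicate 3. The hepatocyte gene Alb ranged from 5.54 in transgenic replicate 2 to 11.7 in transgenic replicate 3. Of the 13 hepatocyte markers 12 had higher means in transgenic mice, with a median log2 fold change of 0.44. The 9 markers of slow fibers, which hold many mitochondria, had their highest mean, 8.45, in WT replicate 2 and lay at 7.93 to 8.13 in the other mice. Like the members, most of them had lower means in transgenic mice, 7 of 9 with a median log2 fold change of -0.16. Of these the slow light chains Myl3 (-0.39, unadjusted p = 0.0428 from limma, adjusted p = 1) and Myl2 (-0.28) and the slow myosin Myh7 (-0.33) had every transgenic mouse below every WT mouse. Markers of adipocytes (7 measured) were at 7.67 to 8.41 in transgenic and 7.43 to 8.15 in WT mice. Those of blood cells and macrophages (5 of 9 measured) were at 6.87 to 7.60 and 6.64 to 6.83. The red-cell genes of this list were not measured, so the values do not cover red blood cells. All 5 measured genes had higher means in transgenic mice. The mean levels over the list did not overlap between the groups, by a small gap (6.87 in transgenic replicate 2, 6.83 in WT replicate 3). Among the single genes only Cd68 and Csf1r did not overlap. Cd68, a lysosomal protein of macrophages, was past the study threshold with the p from limma (1.56-fold, unadjusted p = 0.0288), without an adjusted p under 0.05. Its p by the methods' t-test is not given here. Csf1r, the receptor for the macrophage growth factor, had a log2 fold change of 0.35 without overlap. All 7 adipocyte markers also had higher means in transgenic mice. Markers of endothelial and Schwann cells (5 measured) were at 8.63 to 8.90 and 8.54 to 8.67, with 5 of 5 higher in transgenic mice. Of these Mal and Mbp had every transgenic mouse above every WT mouse, an order found in 2.9% of all probe sets. The reverse order, seen above in Myl3, Myl2 and Myh7, was found in 4.31% of all probe sets. The part of array spread and of other cells in the members' values was not tested. In bulk muscle any difference in the share of mitochondria-rich cells cannot be told apart from one in RNA per cell.

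**Figure D5:**
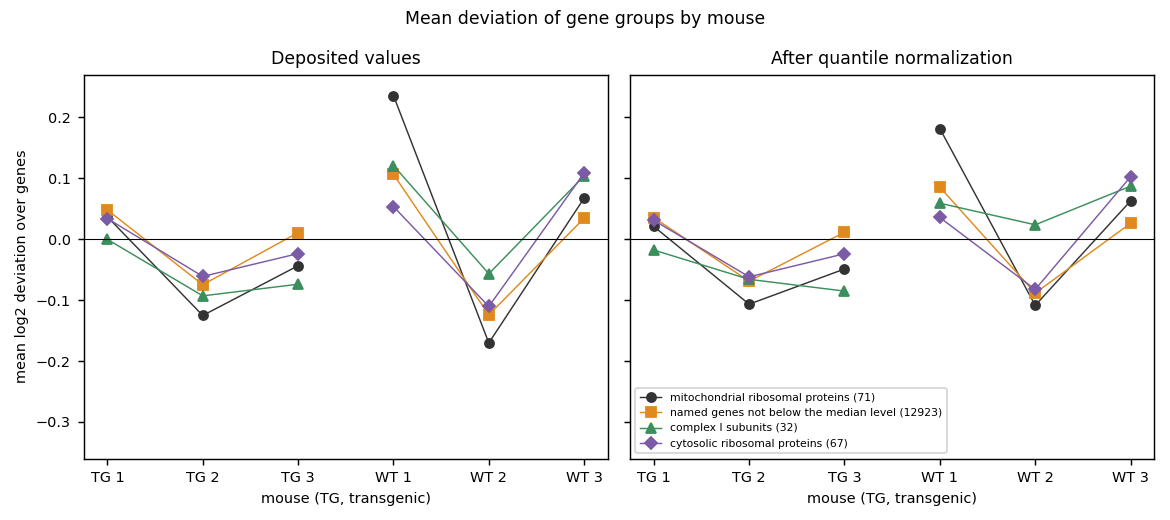
Mean log2 deviation over the genes of 4 groups in each mouse (lines join mice of 1 genotype only to guide the eye), from the deposited values (left) and after quantile normalization (right). The mitochondrial ribosomal proteins go from 0.24 in WT replicate 1 to -0.17 in WT replicate 2 on the left and from 0.18 to -0.11 on the right, with the transgenic mice between these values.

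The other genes of mitochondrial translation had medians in the same direction, and 0 of each list was past the study threshold or had an adjusted p under 0.05 by limma, with 0 at an unadjusted p under 0.05. Over all probe sets these shares were 1.49%, 0% and 2.9% in turn, so a count of 0 in lists this short is near them. The assembly factors (26 genes) had a median log2 fold change of -0.06, with 19 lower. Mrm3, a methyltransferase of the large ribosomal RNA, had 6.54, 6.63 and 6.71 against 7.26, 6.88 and 6.76, a log2 fold change of -0.34 (95% interval -0.75 to 0.07) without overlap between the groups. Mtg1, a GTPase of large-subunit assembly, had -0.26. The translation factors (14 of 15 measured) had a median of -0.07 with 10 lower, led by the release factor Mtrf1 (-0.23) and the recycling factor Mrrf (-0.22). The mitochondrial aminoacyl-tRNA synthetases (19 of 20 measured) had a median of -0.10 with 15 lower, and Wars2, which charges the tryptophan transfer RNA, had 6.13, 6.17 and 5.85 against 6.47, 6.29 and 6.39. Its groups did not overlap, at a log2 fold change of -0.33 (95% interval -0.70 to 0.03), and Tars2, for threonine, had -0.25. Genes of mitochondrial DNA transcription and replication (12) had a median of -0.10 with 10 lower, among them the topoisomerase Top1mt (-0.27), while Mterf1b had 0.30. Nuclear regulators (9), which include Yy1 (-0.21), Esrra (-0.15), Nrf1 (-0.14) and Gabpa (-0.08), had a median of -0.08 with 7 lower. Of the ribosomal proteins with other symbols 3 of 7 were measured, Dap3 at -0.16, Gadd45gip1 at -0.11 and Ptcd3 at -0.06. Messages encoded in mitochondrial DNA matched 0 probe sets with 1 symbol, so the products of this ribosome were not measured here.

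Subunits of the respiratory chain and of the cytosolic ribosome were set beside these. The 32 subunits of complex I had a median log2 fold change of -0.12 with 26 lower and 0 past either unadjusted threshold, led by Ndufa11 (-0.34) and Ndufa2 (-0.33). By limma 1.49% of all probe sets were past the study threshold and 2.9% had an unadjusted p under 0.05. The 40 subunits of complexes II to V had -0.08 with 30 lower, led by the ATP synthase subunits Atp5e (-0.38) and Atp5l (-0.37), and Atp5mpl, a small ATP synthase subunit (-0.35, unadjusted p = 0.0469 from limma), had an unadjusted p under 0.05. The 67 cytosolic ribosomal proteins had a median of -0.05 with 43 lower. Rps3a1, at a log2 fold change of 0.66, was past the study threshold by limma without an adjusted p under 0.05, while Rpl17 had 0.45. WT replicate 1 was above WT replicate 2 in 31 of 32 complex I genes and in 51 of 67 cytosolic ribosomal protein genes. The mean distance between these mice was 0.41 for the members, 0.18 for complex I, 0.06 for complexes II to V and 0.16 for cytosolic ribosomal proteins. After quantile normalization it was 0.29, 0.04, -0.06 (WT replicate 2 higher) and 0.12. The lists of mitochondrial translation lay nearer the members, at 0.39 for assembly factors, 0.39 for translation factors and 0.30 for aminoacyl-tRNA synthetases. After quantile normalization these had 0.34, 0.29 and 0.22. Genes of mitochondrial DNA transcription and replication had 0.19 and nuclear regulators 0.13, and 0.21 and 0.03 after it.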

How the data were processed

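Total RNA of gastrocnemius from 3 transgenic and 3 WT mice was hybridized to 1 array per mouse. The authors deposited log2 expression values, 1 per probe set and array, normalized between arrays; the submitters' processing notes name RMA, and its version is not given in the sources used here. All 6 value columns matched a sample by accession, and 0 columns were left unmatched. Precision is limited by the number of arrays. Probe sets were named through the platform annotation, in which 23521 carry 1 gene symbol, and the symbols of all 71 members were found in RefSeq. Transgenic and WT mice were compared with limma (version 3.58.1 in R 4.3.3) over all 41345 probe sets, without a covariate, with Benjamini-Hochberg adjustment over all of them. Tables and figures were made in Python 3.11.15. The methods' t-test, array weights, a trended prior, quantile normalization, median centring, a filter on probe sets below the median level, the mean of a gene's probe sets, the replicate number as a block and leaving out each mouse were alternatives. The fit was tested on simulated data with 200 changed probe sets. Groups came from the sample labels, which call the replicates biological. Members and lists were chosen with earlier results of these data known, and some lists were written from general knowledge of the mitochondrial ribosome. Named members were those past a threshold, the 6 highest and 6 lowest fold changes, landmark members, those whose probe sets differed by over 0.5, and the 3 with the largest SD between mice. Of other lists any gene past the study threshold was named, and of those other than cell type markers also the 2 largest changes. Genes named outside this rule (Nrf1, Gabpa, Mrps9, Mrpl27, Mrps14, Mrps17, Atp5mpl, the markers Alb, Myl2, Myl3, Myh7, Csf1r, Mal and Mbp, and the genes that share a start region) were chosen after their values were seen.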

Additional observations from a re-analysis of the deposited data

How the results depend on the processing

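In all 14 alternatives 0 members had an adjusted p under 0.05. Against 0 members at an unadjusted p under 0.05 in limma as reported, there were 2 by the methods' t-test (Mrpl24, Mrpl42) and 8 with array weights. A trended prior, quantile normalization, no dim probe sets and the replicate block each gave 1 (Mrpl24). The shares over all probe sets fitted were, in this order, 3.30%, 15.7%, 2.80%, 3.59%, 2.40% and 4.96%. Leaving out 1 mouse gave 0 to 7, with 7 without WT replicate 2 (5.85% of all probe sets) and 1 without WT replicate 1 (4.29%). At the study threshold there was 1 with array weights (Mrpl47, log2 fold change 1.63, where 6.31% of all probe sets passed) and 0 to 1 leaving out 1 mouse (Mrpl47 without WT replicate 1, 2.68% of all probe sets). Without 1 mouse the median log2 fold change lay between -0.21 (without WT replicate 2) and -0.03 (without WT replicate 1), from -0.24 to -0.04 in the large and from -0.18 to -0.01 in the small subunit, with 64 and 43 lower means. The number of members with an interval within 1.5-fold, 42 as reported, went from 15 (without transgenic replicate 1) to 44 (without WT replicate 1), with 27 and 24 without transgenic replicates 2 and 3 and 23 without WT replicate 3; the cause was not tested. The median stayed at -0.12 with the replicate block. Same-numbered mice did not deviate together throughout (correlations 0.41, 0.45 and -0.21), so the numbers were not taken as pairs.

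Of 30 named members 19 kept their sign without any 1 mouse. The other 11 changed it, with ranges of -0.24 to 0.017 (Mrpl1), -0.17 to 0.074 (Mrpl10), -0.40 to 0.13 (Mrpl20), -0.36 to 0.21 (Mrpl32), -0.39 to 0.029 (Mrpl36), -0.081 to 0.21 (Mrps12), -0.0081 to 0.15 (Mrps18c), -0.11 to 0.30 (Mrps22), -0.088 to 0.20 (Mrps23), -0.0037 to 0.28 (Mrps27) and -0.053 to 0.11 (Mrps30). Other alternatives turned Mrpl32 (0.048) and Mrps23 (-0.030) with array weights, Mrps30 with quantile normalization (-0.0010) and median centring (-0.00042), and Mrpl10 (0.18) and Mrpl36 (0.14) as means of their probe sets; the cause was not tested. With 3 mice per group, changes smaller than the reported intervals could not be resolved.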

Other observations

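The 7 genes measured only by shared probe sets had values that cannot be assigned to 1 gene. The probe set of Mrpl44 and Wdfy1 had a log2 fold change of 0.003 (95% interval -0.48 to 0.48), that of Mrpl43 and Twnk, the mitochondrial helicase, -0.21 (-0.72 to 0.29), that of Mrpl41 and Dph7 -0.15 (-0.48 to 0.18), that of Mrps6 and Slc5a3 0.09 (-0.26 to 0.44) and that of Mrpl30 and Gm6238 0.03 (-0.34 to 0.39). Mrpl33 and Mrpl53 each lay on a pair of shared probe sets that differed in sign or size, 0.14 and -0.09 for Mrpl33 and -0.07 and -0.24 for Mrpl53. On the probe set shared by Mrpl47 and its neighbour Actl6a, a chromatin remodelling subunit, values were 8.37, 8.25 and 8.30 in transgenic mice and 8.24, 7.70 and 7.88 in WT mice. The groups did not overlap, at a log2 fold change of 0.36 (95% interval -0.05 to 0.78, unadjusted p = 0.0777 from limma).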
